A study of Arabidopsis thaliana with 10 samples.

Results

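The 10 genes described here are markers of carbon starvation and of ageing in leaves of Arabidopsis thaliana. They were chosen by locus from the count table, which holds 33602 genes. The dark-inducible genes are ASN1 (AT3G47340), DIN2 (AT3G60140), DIN9 (AT1G67070), DIN10 (AT5G20250) and SEN1 (AT4G35770). The senescence-associated genes are SAG12 (AT5G45890), SAG13 (AT2G29350), SAG21 (AT4G02380), ORE1 (AT5G39610) and SWEET15 (AT5G13170). Of the 10 genes, 9 had enough counts to be tested, 5 of them dark-inducible and 4 senescence-associated. SAG12 had 0 counts in all 10 libraries.

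A plant cell that runs short of sugar, in darkness or by day, releases the kinase SnRK1 from inhibition, and group S1 bZIP transcription factors then switch on genes that recover carbon and nitrogen from amino acids, sugars and cell walls. The dark-inducible genes are classical readouts of that state, and sugar in the medium keeps them low. Leaf senescence is a separate programme tied to age, in which NAC and WRKY factors direct the dismantling of chloroplasts and the export of nutrients. The 2 programmes share some genes, and the set was drawn up to hold readouts of both.

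RNA was sequenced from whole seedlings with 4 open true leaves, in 5 groups of 2 libraries, all in the Col-0 background. Wild-type Col-0 and the line DIF-OX2 were each grown without dexamethasone (Dex) and on 10 µM Dex, and the mutant dal-2 was grown without it. Dex, a synthetic glucocorticoid, is used to switch on inducible transgenes. The wild type and DIF-OX2 were harvested at 12 days, while dal-2 replicate 1 was 20 days old and dal-2 replicate 2 was 21 days old. Genotype and age therefore cannot be told apart in dal-2. All seedlings grew on medium with 1% sucrose and 0.1% ethanol, under 16 h of light and 8 h of dark. DIF-OX2 is 1 line, and the promoter of its transgene, the lesion in dal-2 and the hour of harvest are not given in the sources used here. The labels do not say whether replicates came from separate cultures, so p-values measure only the spread between these libraries. That spread may be technical, except that the dal-2 replicates differ in age and so are not repeats of the same sample.

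Libraries held 8805568 to 16556322 counts. Levels are in CPM, counts scaled to a common library size, and differences between genes in level are given only per kilobase of exon. The dal-2 replicates differed most from each other (SD of log2 differences 0.745, against 0.355 to 0.439 in the other groups), and in the fit every group shares the spread of a gene. DAL (AT2G33430), the gene named by the dal-2 allele, stood at 97.9 and 107 CPM in Col-0 and at 29.5 and 35.7 CPM in dal-2. Root markers were detected in every library, 7 of 7, and their summed level was 167 to 189 CPM in Col-0, Col-0 on Dex and DIF-OX2, 207 and 290 CPM in DIF-OX2 on Dex, and 143 and 103 CPM in dal-2. In whole seedlings fewer cells of a type and less RNA per cell cannot be told apart, and the part of tissue make-up in the results was not tested.

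Known regulatory sequences of 2 of these genes were read from the TAIR10.1 genome. The first is the stretch before ASN1, shown because ASN1 is a textbook target of group S1 bZIP factors, which bind sites with an ACGT core. It covers 180 to 91 bases before the annotated start, at chr3:17441522-17441611 on the minus strand, 5′ to 3′, and overlaps the coding exon of the small gene AT3G47341 on the other strand. The capitals mark a G-box (CACGTG) and a sugar starvation element (TATCCA).
ASN1 upstream: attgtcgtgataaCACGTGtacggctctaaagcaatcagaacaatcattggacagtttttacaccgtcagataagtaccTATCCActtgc
On either strand of the 300 bases before the annotated start, CACGTG was found in 7.09% of 27443 genes and in 1 of the 10, ASN1. TATCCA was found in 16.2% of genes and in ASN1 and SAG21 among the 10. The W-box core TTGAC, bound by WRKY factors, was found in 50.4% of genes and in 7 of the 10. None of the 3 motifs contains another, and a match is a description of the letters only.

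The second is the site in ORE1 for the microRNA miR164, shown because miR164 is the known repressor of ORE1 in young leaves and declines with age. Mature miR164a (chr2:19520770-19520790, plus strand) and miR164b-5p have the same 21 bases, and miR164c-5p (chr5:9852684-9852704, plus strand) differs at its last base. The seed, bases 2 to 8, is in capitals and is shared by all of them.
miR164a: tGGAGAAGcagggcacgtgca
miR164c-5p: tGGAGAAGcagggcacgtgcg
The site lies in a coding exon of ORE1 at chr5:15858797-15858817 on the minus strand. Capitals mark the bases that form A:U or G:C pairs, 17 of 21 with miR164a and 18 of 21 with miR164c-5p. G:U pairs were not counted.
ORE1 site, pairing with miR164a: ctCACGTGaCCTGCTTCTCCg
ORE1 site, pairing with miR164c-5p: CtCACGTGaCCTGCTTCTCCg
The primary transcripts of the 3 MIR164 genes had 0 to 4 counts per library and were not tested, so the microRNA itself is not measured here.

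The largest called changes in both main comparisons, of DIF-OX2 on Dex with Col-0 on Dex and of dal-2 with Col-0, were those of 2 genes. DIN2 and SAG13 were higher in dal-2 and also in DIF-OX2 on Dex, each against its own Col-0 control. DIN2 is a beta-glucosidase that is switched on in darkened and in senescing leaves. Its level was 0.334 and 0.971 CPM in Col-0, 1.14 and 1.5 CPM in Col-0 on Dex, and 0.0792 and 0.700 CPM in DIF-OX2 without Dex. It reached 17.8 and 25.0 CPM in DIF-OX2 on Dex and 15.8 and 33.1 CPM in dal-2. All 4 of these libraries lay above all 6 others. Against Col-0 on Dex, DIN2 rose in DIF-OX2 on Dex by 3.99 on the log2 scale (SE 0.547, edgeR quasi-likelihood test, Benjamini-Hochberg adjusted p = 0.00232). In dal-2 against Col-0 it rose by 5.2 (SE 0.633, adjusted p = 0.000871). The levels without induction rest on few counts, 1 count in DIF-OX2 replicate 1 at the least.

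SAG13 encodes a short-chain dehydrogenase that is induced in senescing leaves and in stressed or infected ones. It had 0 counts in both Col-0 libraries, 2 and 1 counts in Col-0 on Dex, and 1 and 3 counts in DIF-OX2 without Dex. In DIF-OX2 on Dex it had 434 and 733 counts, or 46.7 and 44.5 CPM, and in dal-2 it had 225 and 634 counts, or 15.4 and 35.2 CPM. The gene was thus next to silent in 6 libraries and plainly present in 4. The count ratio of DIF-OX2 on Dex to Col-0 on Dex was 381, with a 95% counting interval of 130 to 1850 (adjusted p = 0.000393). In dal-2 SAG13 was at least 160-fold higher than in Col-0, with 3 counts over the Col-0 group as the floor (adjusted p = 0.00042). Counting intervals and floors cover counting error only, and in dal-2 age goes with genotype here as in every dal-2 result.

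Within the same line, Dex raised DIN2 by 5.80 (SE 0.663, adjusted p = 0.00105) and SAG13 by 8.01 (SE 0.629, adjusted p = 0.000389) in DIF-OX2. These were the 2 of 9 tested members called there, against 24.3% of all genes (12.7% higher, 11.6% lower). In Col-0 on Dex against Col-0, 0 of 9 members were called, with a background of 0%, as no gene of the table passed (566 had an unadjusted p under 0.05, and DESeq2 and voom called 0). In DIF-OX2 against Col-0 without Dex 0 of 9 were called as well, against 0.00967% of all genes. In both of these comparisons 0 members had an unadjusted p under 0.05, and DESeq2 and voom called 0. The difference between both Dex effects, which tests DIF-OX2 against Col-0 in their answer to Dex, was 4.78 for DIN2 (SE 1.22, adjusted p = 0.0573). It called 0 of 9 members at a background of 6.33%, with 1 at an unadjusted p under 0.05, 2 by DESeq2 and 0 by voom. For SAG13, with 0 counts in Col-0, the edgeR estimate of that difference had no usable error.

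**Figure D1:**
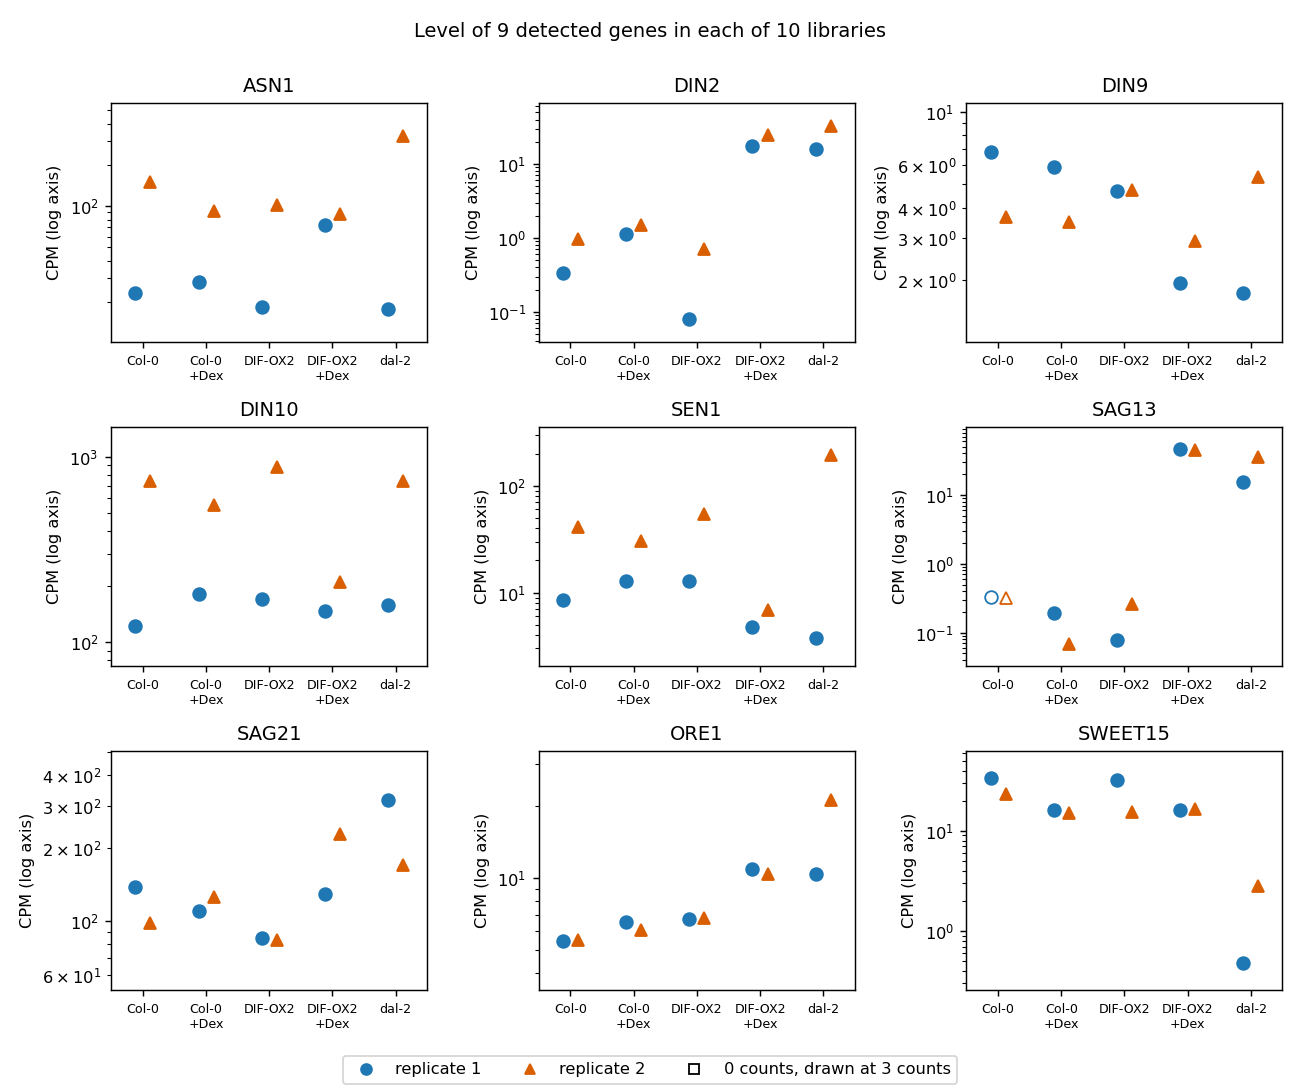
CPM (log axis) of the 9 detected genes in each of the 10 libraries, with circles for replicate 1, triangles for replicate 2 and open symbols for 0 counts drawn at the level of 3 counts. DIN2 and SAG13 are high in the 4 libraries of dal-2 and of DIF-OX2 with Dex, while ASN1, DIN10 and SEN1 are set apart by replicate in most groups.

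In the comparison of DIF-OX2 with Col-0, both on Dex, 2 of 9 tested members were called, both higher, against 22% of all tested genes (11.6% higher, 10.4% lower). That share is near the background. The median log2 fold change of the 9 members was 0.41, and that of all genes was 0.01. The 2 groups did not overlap for 7 members, against 69.8% of all genes, which is again near the background. In dal-2 against Col-0, 5 of 9 members were called, 4 higher and 1 lower, against 33.9% of all genes (15.9% higher, 18% lower). The median was 1.04 for the members and 0.03 for all genes. The groups did not overlap for 5 members, against 65.3% of all genes. The 2 comparisons share no library.

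The other dark-inducible genes did not pass the test in either comparison. ASN1, a glutamine-dependent asparagine synthetase that stores nitrogen when carbon is short, stood at 23.4 and 149 CPM in Col-0, 28.2 and 93.0 CPM in Col-0 on Dex, and 18.4 and 102 CPM in DIF-OX2. With Dex, DIF-OX2 stood at 73.1 and 88.0 CPM, and dal-2, without it, stood at 17.7 and 327 CPM. The groups overlapped in both comparisons, and the 2 libraries of most groups lay further apart than the groups did. The log2 difference was 0.41 (SE 1.31, adjusted p = 0.860) for DIF-OX2 on Dex and 1.00 (SE 1.31, adjusted p = 0.583) for dal-2.

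DIN10, a raffinose synthase-like protein, showed the same spread. Its level was 123 and 744 CPM in Col-0, 183 and 552 CPM in Col-0 on Dex, and 171 and 878 CPM in DIF-OX2. It was 147 and 212 CPM in DIF-OX2 on Dex and 158 and 737 CPM in dal-2. The high value of DIF-OX2 on Dex lay far below the high value of every other group. The log2 difference was -1.03 (SE 1.07, adjusted p = 0.536) for DIF-OX2 on Dex and 0.05 (SE 1.06, adjusted p = 0.978) for dal-2.

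SEN1 is a small sulfurtransferase-like protein of the chloroplast, named for its rise in senescing leaves and strongly induced by darkness. It stood at 8.58 and 41.3 CPM in Col-0, 12.8 and 30.1 CPM in Col-0 on Dex, and 12.8 and 54.2 CPM in DIF-OX2. It stood at 4.74 and 6.86 CPM in DIF-OX2 on Dex, below all 6 libraries of the other Col-0 and DIF-OX2 groups. In dal-2 it was 3.75 CPM in replicate 1, the lowest of all libraries, and 195 CPM in replicate 2, the highest. The log2 difference was -1.87 (SE 1.52, adjusted p = 0.419) for DIF-OX2 on Dex. With only the 4 libraries of that comparison in the fit it was -1.88 and was called (adjusted p = 0.00835). For dal-2 the difference was 2 (SE 1.41, adjusted p = 0.301). It was -1.16 between the libraries numbered 1 and 2.24 between those numbered 2, which the labels do not pair. Without dal-2 replicate 1 it was 2.95 (adjusted p = 0.0279), and without dal-2 replicate 2 it was -2.75.

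DIN9, a phosphomannose isomerase that links mannose to ascorbate and glycan synthesis, was the one dark-inducible gene in which neither replicate was the higher in all groups. Its level was 6.80 and 3.67 CPM in Col-0, 5.88 and 3.47 CPM in Col-0 on Dex, 4.67 and 4.72 CPM in DIF-OX2, and 1.94 and 2.91 CPM in DIF-OX2 on Dex. In dal-2 it was 1.77 and 5.38 CPM. DIF-OX2 on Dex lay below Col-0 on Dex with no overlap, but the difference of -0.89 did not pass (SE 0.543, adjusted p = 0.278). In dal-2 it was -0.52 (SE 0.521, adjusted p = 0.464), and -1.56 (adjusted p = 0.0318) without dal-2 replicate 2.

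Per kilobase of exon in Col-0, the order of levels began with DIN10 at 139 ± 141 CPM per kb (SD, n = 2) and SAG21 at 122 ± 28.9. ASN1 at 31.4 ± 32.3, SWEET15 at 21.2 ± 5.65 and SEN1 at 19.2 ± 17.8 CPM per kb came next. ORE1 followed at 4.18 ± 0.0225, DIN9 at 2.49 ± 1.05 and DIN2 at 0.279 ± 0.193 CPM per kb. Neighbours in this order lay within each other's spread for DIN10 and SAG21, for ASN1, SWEET15 and SEN1, and for SEN1 and ORE1, and lay further apart elsewhere. Sucrose-fed Col-0 seedlings thus carried transcripts of all 5 dark-inducible genes, with DIN2 the lowest of them.

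The senescence-associated genes other than SAG13 differed among themselves. ORE1 is a NAC transcription factor that drives age-dependent leaf senescence and cell death. It was 5.46 and 5.50 CPM in Col-0, 6.54 and 6.06 CPM in Col-0 on Dex, and 6.73 and 6.82 CPM in DIF-OX2. It was 10.9 and 10.4 CPM in DIF-OX2 on Dex and 10.4 and 21.2 CPM in dal-2. All 4 of these libraries lay above the other 6, and outside dal-2 the replicates nearly coincided. ORE1 rose in dal-2 by 1.53 (SE 0.307, adjusted p = 0.00706), although with only the 4 libraries of that comparison in the fit the adjusted p was 0.0744. In DIF-OX2 on Dex the difference was 0.76 (SE 0.301, adjusted p = 0.109). It was called once the dal-2 libraries, which the fit uses for the spread, were left out (0.76, adjusted p = 0.0044).

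SAG21, a late embryogenesis abundant-like protein of mitochondria that is induced by oxidative stress and early in senescence, was 138 and 98.2 CPM in Col-0, 110 and 126 CPM in Col-0 on Dex, and 84.6 and 83.0 CPM in DIF-OX2. It was 129 and 228 CPM in DIF-OX2 on Dex and 315 and 170 CPM in dal-2. Both groups lay above their controls, by a narrow margin in the first. SAG21 rose in dal-2 by 1.04 (SE 0.344, adjusted p = 0.0475). That call was lost in 7 of 10 fits that each left out 1 library, with 0.52 (adjusted p = 0.212) without dal-2 replicate 1. In DIF-OX2 on Dex the difference was 0.60 (SE 0.341, adjusted p = 0.248). The annotated SAG21 locus overlaps a microRNA gene on the same strand, AT4G04125. Among the other members, ASN1 and DIN10 overlap protein-coding genes on the other strand, AT3G47341 and AT5G20260.

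SWEET15 moves sucrose out of cells and, as SAG29, is one of the most strongly induced genes of ageing leaves. In dal-2 it went the other way from SAG13 and ORE1. Its level was 34.0 and 23.2 CPM in Col-0, 16.1 and 15 CPM in Col-0 on Dex, 32.6 and 15.4 CPM in DIF-OX2, and 16.2 and 16.6 CPM in DIF-OX2 on Dex. In dal-2 it was 0.478 and 2.83 CPM, below all 8 other libraries. SWEET15 fell by 4.04 in dal-2 against Col-0 on the log2 scale (adjusted p = 0.00198, SE 0.60). In DIF-OX2 on Dex the difference was 0.08 (SE 0.502, adjusted p = 0.934).

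SAG12, a cysteine protease found in late senescence and held to be the most age-specific of these markers, had 0 counts in every library. If reads from this locus could be counted at all, 3 counts would set a limit of 0.167 to 0.334 CPM per library. Of the genes in the lists used here 10 were at 0 in all libraries, and they include all 5 group S1 bZIP genes in the lists (BZIP1, BZIP2, BZIP11, BZIP44 and BZIP53). Some of these are known as broadly expressed, so a 0 in this table, that of SAG12 included, was not read as absence of the transcript. In the TAIR10.1 annotation 1 of the 10, MT1A, is overlapped by another gene, while SAG12 and the 5 bZIP genes are not. The sources used here do not say how multiply placed or overlapping reads were counted.

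**Figure D2:**
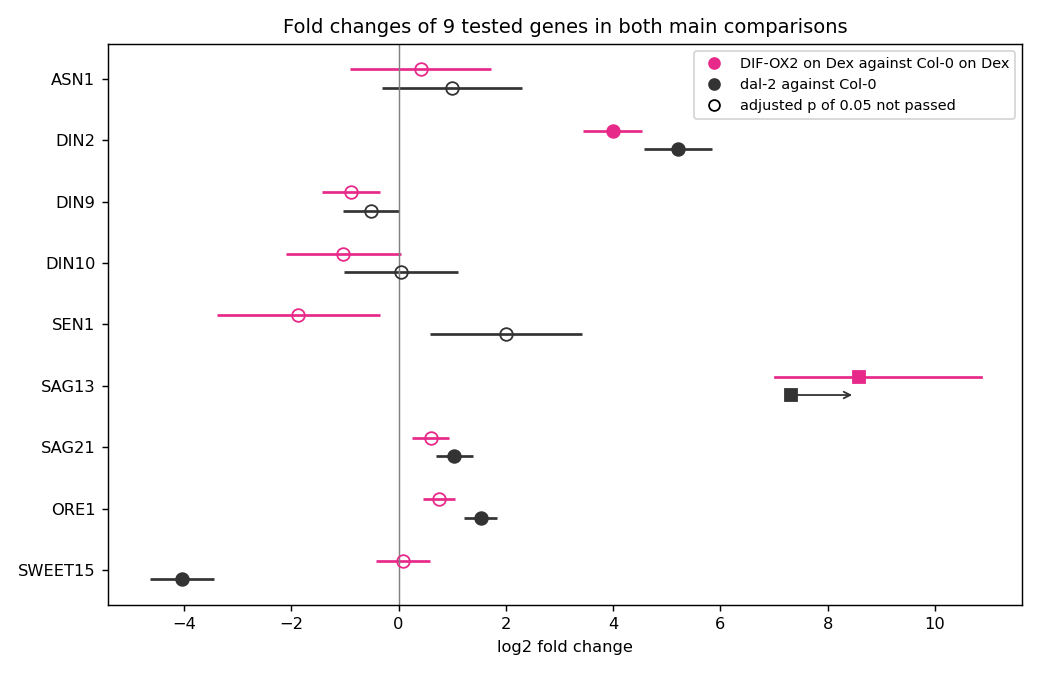
Log2 fold changes of the 9 tested genes for DIF-OX2 on Dex against Col-0 on Dex and for dal-2 against Col-0, with circles and bars for the fitted value ± SE and filled symbols for an adjusted p under 0.05. SAG13 is drawn with squares, as the count ratio of 381 with its 95% counting interval and, for dal-2, as a lower bound of 160-fold with an arrow; SWEET15 is the one gene that is called lower.

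Whether both changes differ from each other was tested for each gene as the dal-2 effect minus the effect in DIF-OX2 on Dex. Of 9 members 1 was called, SWEET15, which was lower, at a background of 6.07% of all genes (4.18% lower). Its difference was -4.12 (SE 0.779, adjusted p = 0.0223). For SEN1 the difference was 3.87 (SE 2.07, adjusted p = 0.299) and for ORE1 it was 0.78 (SE 0.429, adjusted p = 0.314). For DIN2 it was 1.2 (SE 0.918, adjusted p = 0.466). An adjusted p above the threshold does not show that both changes are alike.

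The wide spread of the dark-inducible genes had a common form. In each of the 5 groups, the library numbered 2 was higher than the library numbered 1 for ASN1, DIN2, DIN10 and SEN1. Over the whole table this held for 6.07% of tested genes, and the reverse held for 6.3%. It held for 0 of the 4 tested senescence-associated genes. The labels do not say that a number marks a shared culture, batch or hour, and these shares are a description without a test. A term for the number in the edgeR fit was 2.26 on the log2 scale for ASN1 (adjusted p = 0.238) and 0.85 for DIN2 (adjusted p = 0.274). It was 1.88 for DIN10 (adjusted p = 0.195) and 2.33 for SEN1 (adjusted p = 0.303), so none of them was called.

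The ratio of replicate 2 to replicate 1 for ASN1 was 6.37 for Col-0 and 3.30 with Dex, 5.54 for DIF-OX2 and 1.2 with Dex, and 18.4 for dal-2. For DIN10 the ratios in the same order were 6.07, 3.02, 5.12, 1.44 and 4.67. For SEN1 they were 4.82, 2.35, 4.23, 1.45 and 52.0. The ratios of these genes were thus smallest in DIF-OX2 on Dex, and those of ASN1 and SEN1 were largest in dal-2. DIN2 had ratios of 2.90, 1.32, 8.84, 1.40 and 2.10, of which the first and the third rest on few counts. DIN9 was higher in the library numbered 2 in 3 of 5 groups, with a ratio of 0.54 in Col-0 and 3.04 in dal-2.

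Other genes known to be induced by sugar starvation were spread in the same way. Of the 14 in that list, 9 were higher in replicate 2 in all 5 groups and 0 were lower in all 5. EXL1, needed for growth under low carbon, had ratios of 6.68, 5.84, 6.39, 1.07 and 8.30. STP1, a hexose carrier repressed by sugar, had ratios of 4.34, 2.39, 3.90, 1.33 and 6.74. The median log2 difference between replicates was 0.56 for the list and -0.01 for all genes. Among 5 genes known to be induced by sugar, 0 were higher and 2, APL4 and TPS5, were lower in replicate 2 in all 5 groups. The median was -0.45. Of 22 senescence regulators, 1 was higher in all 5 groups, and of 16 other senescence-associated genes 6 were.

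**Figure D3:**
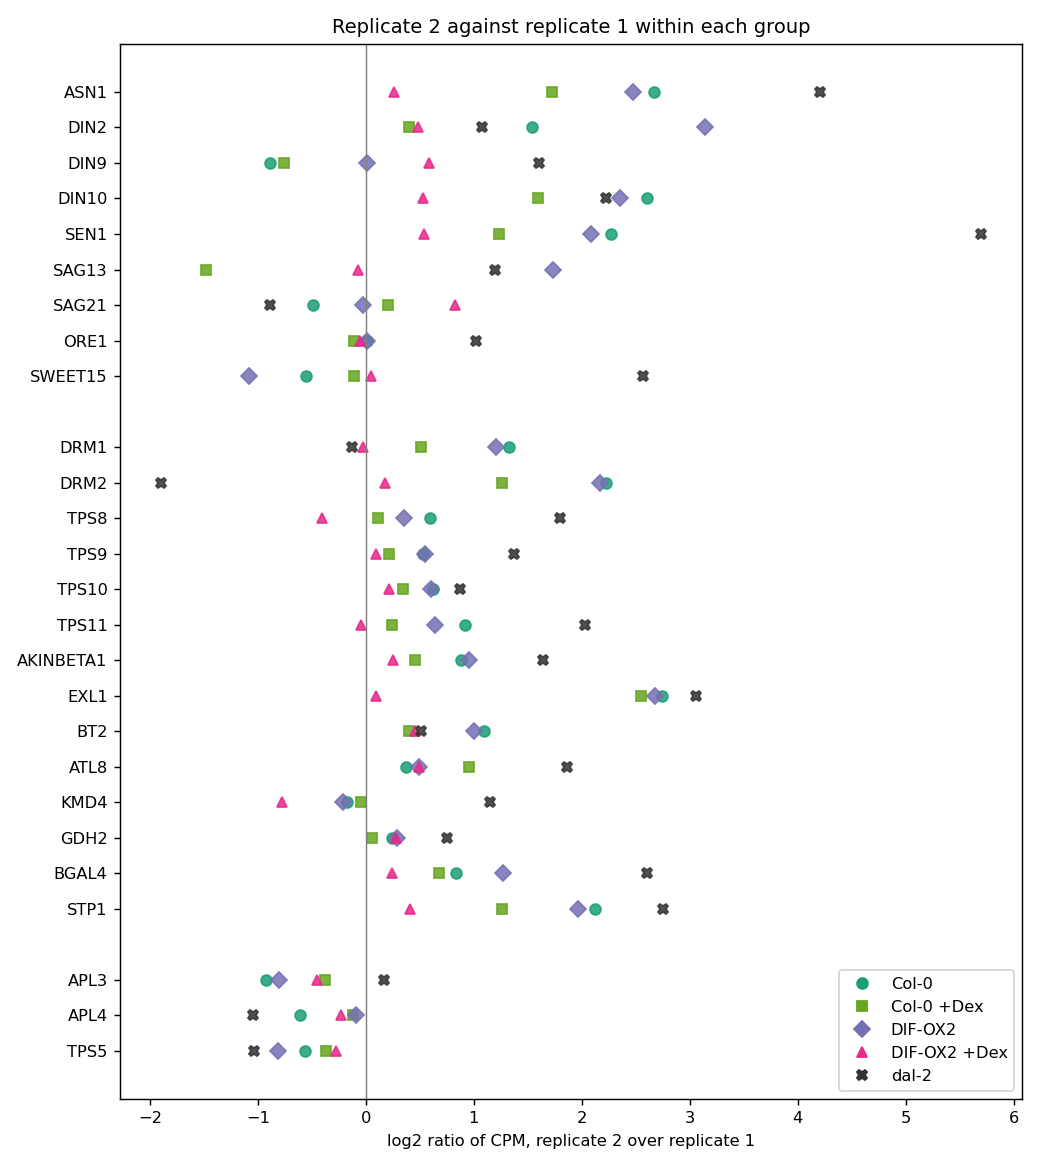
Log2 ratio of CPM in replicate 2 to replicate 1 within each of the 5 groups for the 9 detected genes (top), the 14 sugar starvation genes (middle) and 3 sugar-induced genes detected in every library (bottom); SAG13 has no point in Col-0, where both libraries had 0 counts. ASN1, DIN2, DIN10 and SEN1 lie to the right of 0 in all 5 groups, and DIF-OX2 on Dex lies nearest to 0 for ASN1, DIN10 and SEN1.

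Genes of the circadian clock also differed between the dal-2 replicates. The dawn gene CCA1 was at 4.84 CPM in dal-2 replicate 1 and 155 CPM in dal-2 replicate 2, against 133 to 439 CPM in the other 8 libraries. LHY, its partner, was at 1.30 and 90.1 CPM in dal-2, against 177 to 397 CPM. The evening gene ELF4 was at 90.4 CPM in dal-2 replicate 1 and 0.278 CPM in replicate 2, against 0.317 to 2.91 CPM elsewhere. PRR5 was at 86.0 and 1.94 CPM, against 0.633 to 2.25 CPM. So dal-2 replicate 1 stood apart from the other 9 libraries in these genes, which were listed after their values were seen. In the other 4 groups the log2 difference of replicate 2 from replicate 1 was -0.55 to -0.22 for CCA1, -0.45 to -0.26 for LHY and -1.2 to -0.75 for the morning gene PRR9. Darkness and the clock act on dark-inducible genes, and the part of these clock differences in the values of ASN1, DIN10 and SEN1 was not tested. Because dal-2 replicate 1 enters every dal-2 comparison, the same holds for all dal-2 results given here, called changes included.

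The genes with levels most like a member over the 10 libraries were searched among 16523 genes by the root mean square difference of log2 CPM, each gene centred on its own mean. For ASN1 these were ERD5 (0.589), which is proline dehydrogenase, STP1 (0.699) and the anion channel gene SLAH3 (0.715). For SEN1 they were the xylosidase gene BXL1 (0.748), STP1 (0.833) and AT2G05540 (0.84). ERD5 itself read 62.6 and 204 CPM in Col-0 and 62.5 and 352 CPM in dal-2, the form seen in ASN1. For SAG13 they were AT2G43620 (1.26), AT2G05510 (1.31) and GPT2 (1.34). For ORE1 they were AT1G07040 (0.114), FBH4 (0.119) and AT1G14890 (0.125).

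Gene lists of both programmes were then read beside the members. Lists are described by counts of called genes and by median log2 fold changes, to be read against the shares and medians of all genes given above for each comparison. They were chosen with earlier results of these data known, so these shares and medians are descriptions and not tests. In DIF-OX2 on Dex, 0 of 14 sugar starvation genes rose and 2 fell, with a median of -0.73. In so short a list, the shares that rose and fell are both near those of all genes. DRM1, a dormancy-associated gene, read 25.4 and 36.0 CPM in Col-0 on Dex and 7.86 and 7.71 CPM in DIF-OX2 on Dex, with no overlap. It fell by 1.98 (adjusted p = 0.0238), and the F-box gene KMD4 fell by 1.40 (adjusted p = 0.0292). With only the 4 libraries of the comparison in the fit, 10 of the 14 were called, and without Col-0 on Dex replicate 1 or 2, or without DIF-OX2 on Dex replicate 2, 0 were. Without DIF-OX2 on Dex replicate 1 it was 1, and without either dal-2 library it was 6.

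Of 20 genes for the breakdown of amino acids 0 were called in DIF-OX2 on Dex (median 0.09), with 2 at an unadjusted p under 0.05, 0 by DESeq2 and 1 by voom. Among them was DIN3, a subunit of the branched-chain keto acid dehydrogenase (-0.48, adjusted p = 0.560). Of 5 sugar-induced genes 3 rose (median 1.28). GPT2, which carries glucose 6-phosphate into plastids and is a standard readout of sugar excess, went from 0.0949 and 0.272 CPM in Col-0 on Dex to 63.0 and 34.9 CPM in DIF-OX2 on Dex. Its fitted log2 difference was 7.88 (adjusted p = 0.000657), and the size of that difference rests on few counts in Col-0 on Dex. APL3, a subunit of the starch enzyme ADP-glucose pyrophosphorylase, rose by 1.28 (adjusted p = 0.0324). The count of 3 fell to 2 without Col-0 on Dex replicate 1 or either DIF-OX2 library, and to 1 without Col-0 on Dex replicate 2 or either library of DIF-OX2 on Dex. The kinase list of SnRK1 subunits and bZIP genes had 6 of 11 tested and 0 called (median -0.04), with KIN10 at 0.07 (adjusted p = 0.690); DESeq2 and voom called 0 and 1 had an unadjusted p under 0.05.

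On the senescence side, 11 of 22 regulators rose and 1 fell in DIF-OX2 on Dex (median 1.08). The list holds promoters and brakes of senescence together, so in neither comparison does its count give a direction of the programme. The NAC gene ATAF1 read 31.4 and 26.4 CPM in Col-0 on Dex and 173 and 209 CPM in DIF-OX2 on Dex, a rise of 2.73 (adjusted p = 0.00701). WRKY45, which promotes senescence, rose by 2.48 (adjusted p = 0.0052), and the auxin response factor ARF2 fell by 0.74 (adjusted p = 0.00789). Of 16 tested other senescence-associated genes 8 rose and 0 fell (median 1.07). The ribonuclease RNS1 rose by 6.40 (adjusted p = 0.000131), from 0.285 and 0.204 CPM to 20.2 and 21.7 CPM. The levels of RNS1 in Col-0 on Dex are those of 3 counts per library, so the size of the rise rests on few counts. The hexose carrier STP13, which is also induced by infection, rose by 3.53 (adjusted p = 0.000778). In the fits that left out 1 library, 7 to 15 regulators and 5 to 10 of the other genes were called. The lowest counts came without Col-0 on Dex replicate 2 for the regulators and without either Col-0 on Dex library or DIF-OX2 on Dex replicate 2 for the others.

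Of 7 direct targets of ORE1, which was itself not called there, 1 rose in DIF-OX2 on Dex, the nuclease BFN1 (1.41, adjusted p = 0.0281), and the median was 0.20, with a share called near that of all genes. That call was lost without any one library of either group. Of 7 proteases of senescence 3 rose (median 0.33), led by the endopeptidase CEP1 (4.32, adjusted p = 0.00278) and the vacuolar enzyme ALPHAVPE (1.64, adjusted p = 0.00386). Of 22 autophagy genes 2 rose, ATG8B (1.21, adjusted p = 0.00126) and ATG1A (0.78, adjusted p = 0.0354), with a median of 0.16 and with 1 to 5 calls in the fits that left out 1 library. Of the 5 tested genes upstream of ORE1 0 were called, by DESeq2 and voom as well, and 0 had an unadjusted p under 0.05, with the ethylene signalling gene EIN2 at -0.03 (adjusted p = 0.891). Of the 7 root markers 1 rose, PHO1 (0.87, adjusted p = 0.0194), with a median of 0.61.

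In dal-2, 5 of 14 sugar starvation genes rose and 1 fell (median 0.58). DRM2, a relative of DRM1, read 4.79 and 22.3 CPM in Col-0 and 331 and 89.0 CPM in dal-2 and rose by 3.95 (adjusted p = 0.0165). The galactosidase BGAL4 rose by 2.54 (adjusted p = 0.0367), and TPS8, a trehalose phosphate synthase-like gene, fell by 1.85 (adjusted p = 0.023). With only the libraries of the comparison in the fit 1 of the 14 was called, and without Col-0 replicate 1 there were 2. Of 20 amino acid breakdown genes 7 rose and 0 fell (median 0.84). The aminotransferase BCAT2 rose by 4.37 (adjusted p = 0.0195), from 2.12 and 3.56 CPM in Col-0 to 6.96 and 111 CPM in dal-2, and the lysine catabolic gene LKR by 1.73 (adjusted p = 0.0207). BCAT2 and LKR were higher in dal-2 replicate 2 than in replicate 1, as were ASN1 and SEN1, with ratios of 15.9 for BCAT2 and 3.34 for LKR. The other called genes of the list had ratios of 1.17 to 2.36. With only the libraries of the comparison there was 1 call in that list, without dal-2 replicate 1 there were 16, and without either Col-0 library there were 3.

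Of the 5 sugar-induced genes 1 rose and 1 fell in dal-2 (median 0.29). GPT2 was at least 16.4-fold higher than in Col-0, where it had 0 counts (adjusted p = 0.00882), and read 1.43 and 3.72 CPM. APL3 fell by 1.64 (adjusted p = 0.0109). The call of 1 of these genes was lost without Col-0 replicate 1, and both were lost with only the libraries of the comparison. Of the SnRK1 and bZIP list 0 were called (median -0.14), by DESeq2 and voom as well, and 0 had an unadjusted p under 0.05, with KIN10 at -0.14 (adjusted p = 0.340).

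Of 22 senescence regulators 9 rose and 2 fell in dal-2 (median 0.81). WRKY53, an early senescence regulator, read 2.34 and 1.83 CPM in Col-0 and 8.87 and 10.4 CPM in dal-2, a rise of 2.20 (adjusted p = 0.000434). WRKY45 rose by 2.35 (adjusted p = 0.0051). WRKY70, known as a brake on senescence, fell by 1.65 (adjusted p = 0.00282), and ARF2 fell by 0.49 (adjusted p = 0.0264). Of the 16 other senescence-associated genes 6 rose and 2 fell (median 0.44). SAG14, a copper protein gene, rose by 4.89 (adjusted p = 0.000316), from 3.90 and 5.72 CPM to 90.3 and 196 CPM. STP13 rose by 3.13 (adjusted p = 0.000886), and the glutamine synthetase GLN1;4 fell by 1.57 (adjusted p = 0.00476). With only the libraries of the comparison 4 genes of each of these lists were called. The count of regulators was 6 without Col-0 replicate 2, and that of the other genes was 5 without Col-0 replicate 2 and 12 without dal-2 replicate 2.

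Of the 7 ORE1 targets 0 rose and 3 fell in dal-2 (median -0.55), while ORE1 itself rose there. The ribonuclease RNS3 fell by 1.32 (adjusted p = 0.00728), and PAO, which opens the chlorophyll ring, fell by 0.91 (adjusted p = 0.0031). Without Col-0 replicate 1, or with only the libraries of the comparison, there was 1 call, and without dal-2 replicate 1 there were 2. Of the genes upstream of ORE1 1 rose and 1 fell, the latter being EIL1 (-0.55, adjusted p = 0.0353). Proteases had 4 of 7 higher (median 0.93), with RD19A at 1.43 (adjusted p = 0.00665) and CATHB3 at 1.06 (adjusted p = 0.00352), and without either Col-0 library there were 2 calls and with only the libraries of the comparison 0. Autophagy genes had 5 of 22 higher (median 0.08), with ATG8B at 1.71 (adjusted p = 0.000224) and the cargo receptor NBR1 at 1.54 (adjusted p = 0.00224), with 3 calls without Col-0 replicate 2 and 2 with only the libraries of the comparison. Of the 7 root markers 3 fell (median -0.53), among them CASP1 (-1.01, adjusted p = 0.00986) and EXPA18 (-0.92, adjusted p = 0.0175), and with only the libraries of the comparison 0 were called.

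**Figure D4:**
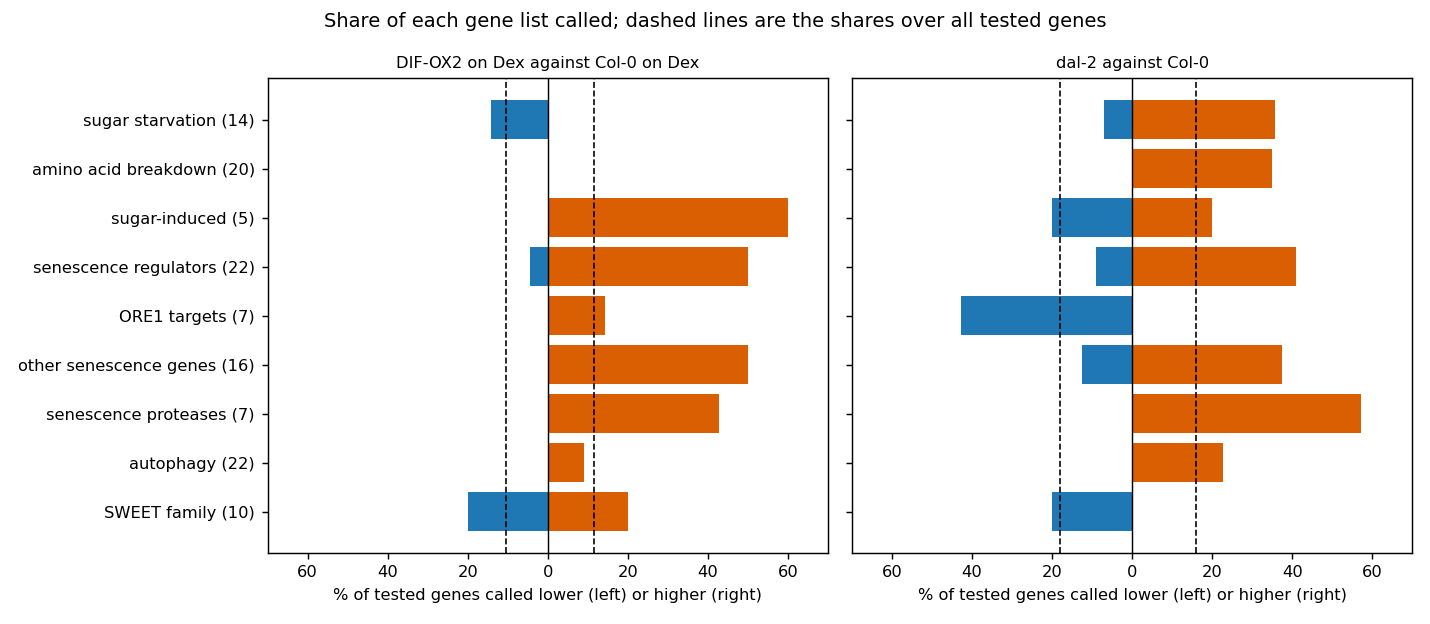
Share of the tested genes of each list called lower (left of 0) or higher (right of 0), in % of the number in brackets, for DIF-OX2 on Dex against Col-0 on Dex and for dal-2 against Col-0; dashed lines are the shares over all tested genes. In the first comparison 11 of 22 senescence regulators and 8 of 16 other senescence genes are higher. Of 14 sugar starvation genes 0 are higher there, against 11.6% of all tested genes, which in so short a list is near the background. In dal-2 each of these named lists holds higher genes, while the ORE1 targets and the SWEET family hold none. The lists were chosen with earlier results of these data known.

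Of 16 tested relatives 1 rose and 3 fell in DIF-OX2 on Dex (median -0.29), and 4 rose and 5 fell in dal-2 (median -0.48). Among asparagine synthetases ASN2, the gene favoured in light, fell by 0.66 in DIF-OX2 on Dex (adjusted p = 0.0156) and was higher by 0.49 in dal-2 (adjusted p = 0.0327), while ASN3 fell by 1.01 in dal-2 (adjusted p = 0.00188). PMI1, the second phosphomannose isomerase beside DIN9, fell by 1.08 in dal-2 (adjusted p = 0.00731), and SIP1, a relative of DIN10, fell by 0.70 (adjusted p = 0.0222). BGLU28, a beta-glucosidase near DIN2 in sequence, rose by 1.88 in DIF-OX2 on Dex (adjusted p = 0.0111). Without Col-0 on Dex replicate 1 or DIF-OX2 on Dex replicate 2, 0 relatives were called in that comparison, 1 was without Col-0 on Dex replicate 2, and 9 were without either dal-2 library. In dal-2, 4 calls instead of 9 were made with only the libraries of the comparison.

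The sulfurtransferase STR14, a relative of SEN1, fell in both. It read 177 and 167 CPM in Col-0 on Dex and 77 and 54.9 CPM in DIF-OX2 on Dex, a fall by 1.38 (adjusted p = 0.00917), and 166 and 158 CPM in Col-0 against 14.3 and 25.5 CPM in dal-2, a fall by 3.02 (adjusted p = 0.00032). STR16 was higher in dal-2 by 1.10 (adjusted p = 0.0029) and so was STR17, at low counts, by 3.34 (adjusted p = 0.0256). Of the relatives of SAG13, AT2G29360 fell by 1.07 in DIF-OX2 on Dex (adjusted p = 0.0215), against the rise of SAG13 there. Of the relatives of SAG21, DI21 rose by 1.19 in dal-2 (adjusted p = 0.00327) and AT1G02820 fell by 3.27 (adjusted p = 0.00658).

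The SWEET transporters had 10 of 17 genes tested, SWEET15 included. In dal-2, 0 rose and 2 fell (median -0.69), SWEET15 and SWEET13. SWEET13, another sucrose carrier, read 12.1 and 5.82 CPM in Col-0 and 0.751 and 1.11 CPM in dal-2 and fell by 3.24 (adjusted p = 0.00313). Without dal-2 replicate 1 there were 5 calls in the family. In DIF-OX2 on Dex 2 rose and 2 fell (median 0.05), with SWEET13 higher by 1.76 (adjusted p = 0.0255) while the vacuolar carrier SWEET16 fell by 1.55 (adjusted p = 0.00936) and its close relative SWEET17 fell by 0.53 (adjusted p = 0.0456). Those 4 calls were 0 in number without Col-0 on Dex replicate 2 and 1 without Col-0 on Dex replicate 1 or DIF-OX2 on Dex replicate 2.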

How the data were processed

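Total RNA of whole seedlings was sequenced in 10 libraries (5 groups of 2). The authors deposited 1 table of whole-number counts per gene; per the submitters' processing notes, Trimmomatic, TopHat2, HTSeq and the TAIR10 genome were used, and versions, strand setting and handling of multiply placed reads are not given in the sources used here. Each library had a column, and 0 columns belonged to no sample. In R 4.3.3, the filterByExpr step of edgeR 4.0.16 left 20681 genes to test and removed 12921. After TMM scaling, its quasi-likelihood fit took all 10 libraries with a mean for each group, and a gene was called at a Benjamini-Hochberg adjusted p of 0.05 over the tested genes. Each of the 7 comparisons is a contrast of that fit. Folds against 0 counts use a floor of 3 counts over the group, and ratios with 1 to 3 counts have 95% counting intervals.

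The members and the 13 gene lists were chosen with earlier results of these data known. Beside the members, the text names up to 2 called rises and 2 called falls per list in the comparisons of DIF-OX2 on Dex with Col-0 on Dex and of dal-2 with Col-0, if their mean count reached 50, the first gene of a list with no call, the called relatives of the members and, for 4 members, the 3 genes most alike in level. EXL1, STP1, APL4, TPS5, ABI5 and the clock genes were chosen after their values were seen, and the mean count of ABI5 was below 50. Gene models and sequences came from TAIR10.1, whose windows of 300 bases stand in for a promoter table. Alternatives were size factors, upper quartile scaling, no filter, a filter of 5 CPM in 2 libraries, DESeq2 1.42.0, voom of limma 3.58.1, subsets of libraries, a replicate block and a 2-fold minimum. The pipeline was tested on simulated data.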

Additional observations from a re-analysis of the deposited data

Results flagged for a closer look

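SWEET15 differed between dal-2 and DIF-OX2 on Dex, each taken against its own Col-0 control, by a test of the difference itself. The difference in log2 fold change was -4.12 (edgeR, SE 0.779, adjusted p = 0.0223), with SWEET15 lower in both dal-2 libraries than in all 8 others. Leaving out 1 library at a time gave -5.95 to -3.41 (adjusted p 0.00124 to 0.111), and the call was lost in 6 of 10 such fits, those without a Col-0, a Col-0 on Dex or a DIF-OX2 on Dex library. The age of dal-2 and its genotype cannot be told apart in this difference. No group could be searched for an outlying library, since each holds 2.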

How the results depend on the processing

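DIN2 and SAG13 kept their calls in both main comparisons under every alternative run, and so did SWEET15 in dal-2; no called member reversed. Member counts moved as follows, and beyond the number of libraries in a fit the cause was not tested. With only the libraries of a comparison in the fit, 4 members instead of 2 were called in DIF-OX2 on Dex, 3 instead of 5 in dal-2 and 6 instead of 2 for Dex in DIF-OX2. Without both dal-2 libraries the last was 4. For the difference of both Dex effects, 0 became 1 (DIN2) with upper quartile scaling, no filter, only its libraries, no dal-2 libraries or the replicate block, and 2 with DESeq2. Leaving out 1 library gave 4 to 6 members in dal-2, 2 to 5 for Dex in DIF-OX2, 0 to 1 for the difference of Dex effects and 0 to 3 for dal-2 minus DIF-OX2. Such fits give a group with 1 remaining library the spread of the other groups, which is smaller than that of dal-2, so calls made without 1 dal-2 library carry less weight. For SAG21 in dal-2 the adjusted p was 0.054 with voom and 0.0588 with the replicate block. The labels do not pair the samples by replicate number, and the data do not settle it. Replicate differences correlated at 0.28 to 0.46 among Col-0, Col-0 on Dex and DIF-OX2 and at -0.1 to 0.12 in pairs with the other 2 groups. The numbers were therefore not used as pairs in the main fit. A term for the number called 0 genes by edgeR, with 2327 at an unadjusted p under 0.05.

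Over the whole table, DIF-OX2 on Dex had 4549 calls, 6892 with only its libraries, 7065 without dal-2, 2461 at a 2-fold minimum and 1343 to 7102 without 1 library. For dal-2 there were 7011 (3280 higher), 2258 with only its libraries, 3976 at a 2-fold minimum and 3891 to 8352 without 1 library. Upper quartile scaling shifted the median of all genes by 0.129 there and by 0.127 in dal-2 minus DIF-OX2, and gave 4564 higher of 7704. Dex in DIF-OX2 had 5023 calls (2698 to 7632 under other settings, 1394 to 7678 without 1 library), the difference of Dex effects 1309 (1092 to 3681, 190 to 3660), dal-2 minus DIF-OX2 1255 (752 to 1820, 236 to 3810), and DIF-OX2 against Col-0 2 (0 to 6). Of the counts for the lists, 114 moved by over 1.5 times. The MIR164 transcripts and the uninduced levels of DIN2 and SAG13 rest on few counts or 0. The levels of GPT2 and RNS1 in Col-0 on Dex rest on few counts as well. For SAG12 depth and the counting of its locus cannot be told apart.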
